A study of Mus musculus with 24 samples.

Results

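The closely spaced 5hmC regions described here are stretches of striatal DNA enriched for 5-hydroxymethylcytosine that lie within 1000 bp of another such region. They come from the deposited table that compares prenatally stressed with control mice heterozygous (het) for Cntnap2, the gene of the neuronal adhesion protein Caspr2. A region was taken if it was autosomal, outside chromosome 6 from 30 to 60 Mb, and had a neighbour in the same table with a gap of at most 1000 bp between one end and the next start. Of the 32205 regions in that table, 31722 were eligible and 4317 (13.6% of the eligible) were closely spaced. They form 2003 chains, and the other 27405 eligible regions are called isolated below. The 454 regions in the chromosome 6 window and the 29 regions on chromosome X were left out of the chains but stayed in every fit. The 5 tables of the series hold 160195 regions in all.

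5hmC and RNA had been measured in the striatum of female C57BL/6 mice, 3 per group, that were wild type or het for Cntnap2. Their dams, which carried embryos of both genotypes, had been under variable stress for 7 days from embryonic day 12.5 or had not been stressed. The main comparison is het stressed (3 mice) with het control (3 mice), so both groups carry the het allele and differ in prenatal condition. The pups were ear-tagged on postnatal day 12 and weaned on day 18; the labels give neither the age at sacrifice nor which mice were littermates, so p-values cover only the spread among these animals.

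5hmC is made from 5-methylcytosine by the TET enzymes, which oxidise the methyl group. It is more abundant in neurons than in most other cells, lies mainly in the bodies of transcribed genes and at enhancers, and can be an intermediate of demethylation as well as a lasting mark. Regions found by enrichment of 5hmC-bearing fragments are intervals of high read density, so neighbouring intervals can be pieces of one wider stretch of the mark. Whether neighbours move together, and whether adding their counts sharpens a comparison, are the questions taken up here. The genes that hold these regions and their sequences were not analysed here.

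Each library held 1276254 to 2858355 counts over the het table. A single isolated region, chr2:98501990-98507999 (all coordinates are in mm9), held 12.1 to 13.9% of the counts in the het controls. In the het stressed mice it held 14.5 to 17.9%, with no overlap. Its mean count per kb was 48269, against a median of 39.9 in isolated regions. Whether its reads come from near-identical copies elsewhere was not examined, so their origin is uncertain. RNA of the same tissue showed all 9 spiny neuron markers, as TPM (length-scaled transcript abundance), in the 6 het mice, with Ppp1r1b, the signalling protein DARPP-32, at 1109 to 2573 TPM. Het control replicate 1 stood apart: its spiny neuron sum was 3795 TPM against 6370 to 7980 in the other 5, and its sum of 7 oligodendrocyte markers 5030 TPM against 9367 to 11037. The part of this library in the results was not tested beyond leaving it out. The RNA data of het control replicate 1 carry another animal number than the label, so whether its RNA and 5hmC came from one mouse is unsure.

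Tissue composition differed between the groups in the RNA. The 5 cortical markers summed to 112 to 156 TPM in the het stressed mice and to 12.2 to 86.7 TPM in the het controls. These sums did not overlap (exact permutation test, two-sided, p = 0.1, the smallest that 3 against 3 can give). The vesicular glutamate transporter Slc17a7 was at 96.5 to 135 TPM against 9.47 to 70.2 TPM, and all 5 cortical markers were above 0 in every het library. The 8 choroid plexus markers summed to 13.1 to 577 TPM in the stressed and 10.6 to 857 TPM in the control mice, overlapping. Every het difference in 5hmC below is between groups that also differed in this cortical signal, whose part in it was not tested. In bulk tissue, fewer cells that carry a mark and less mark per cell cannot be told apart.

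Most chains were pairs. There were 1742 chains of 2 regions (87.0%), 224 of 3, 28 of 4, 7 of 5, 1 of 6 and 1 of 8. The 2314 gaps inside chains ran from 2 to 1000 bp, with a median of 452 bp. No regions of the table overlapped. The number of adjacent eligible pairs fell steadily with the gap, from 2314 at up to 1 kb to 1834 at 1 to 2 kb, 1555 at 2 to 3 kb and 1305 at 3 to 4 kb. The limit of 1000 bp thus lies on a slope with no break: 183 pairs had a gap of 900 to 1000 bp and a median log2 fold change of 0.04, and 201 had 1000 to 1100 bp and a median of 0.01.

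Closely spaced regions were a little longer and held a little more signal than isolated ones. Their median width was 1176 bp (1001 to 9095), against 1114 bp (1001 to 6010). The median count per region, averaged over the 6 libraries, was 53.8 against 48.2, and per kb it was 42.03 against 39.9. A chain spanned 3181 bp at the median (2026 to 18000) and held a median summed count of 116. By chromosome, their share of eligible regions ran from 9.16% on chromosome 7, which had 7.07 eligible regions per Mb, to 18.1% on chromosome 19, which had 17.9 per Mb.

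No chain was called different between stressed and control het mice. Each chain was summed to 1 value and fitted with all other regions, 29891 features in all, of which 14 (0.0468%) passed an adjusted p of 0.05 by edgeR's quasi-likelihood test. Of the 2003 chains 0 passed, and the smallest adjusted p was 0.0889. DESeq2 and limma-trend also called 0 chains. An unadjusted p below 0.05 was reached by 202 chains with edgeR, 10.1% as against 10.1% of all features. Of these, 100 were higher and 102 lower in stressed mice, where 5.03% of all features were in each direction. DESeq2 gave 54 such chains, where 2.89% of all features had such a p, and limma-trend 214, where 10.6% did.

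Relative to all features, chains were centred on no change. The scaling of the libraries takes most features as unchanged, so a shift common to all regions could not be seen. The log2 fold change, stressed to control, was above 0 in 1047 chains and below 0 in 956, with a median of 0.01, against 0.00 over all features. The central 90% of chains lay between -0.26 and 0.26 and the extremes were -0.51 and 0.57, while the central 90% of all features lay between -0.37 and 0.38. A fold of 1.2 in either direction was passed by 186 chains (9.29%), against 24.0% of all features. The median standard error was 0.13 for chains and 0.19 for all features, so these ranges and shares are not like for like. The 3 stressed libraries lay above the 3 controls in 162 chains, 8.09%, as in 7.97% of all features, and below them in 149 chains, 7.44%, as in 7.55% of all features. Together the groups were apart in 15.5% of chains and 15.5% of all features. By size, 898 of 1742 chains of 2 were higher (median 0.01), 129 of 224 chains of 3 (median 0.03) and 20 of 37 longer chains (median 0.04).

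Summing narrowed the error without producing calls. The median standard error of the log2 fold change was 0.13 for chains, 0.18 for closely spaced regions taken singly and 0.19 for isolated regions. The standard deviation of the log2 fold changes over chains was 0.16. Taken singly, 0 of 4317 closely spaced regions passed by edgeR, against 2 of the 32205 regions of the table (0.00621%); the smallest adjusted p was 0.0675. DESeq2 and limma-trend called 0. An unadjusted p below 0.05 was reached by 401 (9.29%), against 9.95% of the table, by 98 with DESeq2 (2.8% of the table) and by 417 with limma-trend (10.5%). In data simulated from these libraries, 200 chains among the 29891 features were changed. Of these chains, 68.5% were recovered at 1.5-fold and 99.5% at 2-fold, with 4 and 6 false calls. The simulated spread followed the abundance trend alone, with no feature of wider spread, so recovery in the real data may be lower.

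Calls appeared when single libraries were left out. Without het control replicate 1, 3 chains passed (smallest adjusted p 0.0061); without het control replicate 3, 4 passed (0.0334); without het stressed replicate 1, 2 passed (0.0460). In the same 3 fits 77 (0.258%), 34 (0.114%) and 44 (0.147%) of the 29891 features passed. Leaving out any of the other 3 libraries gave 0 chains. Taken singly, 2 closely spaced regions passed in each of these 3 fits, where 60 (0.186%), 29 (0.09%) and 42 (0.13%) of the table did. Without het stressed replicate 1 these were chr1:138528788-138530750 (log2 fold change 0.71, adjusted p 0.0375) and chr1:153907899-153908899 (-1.15, adjusted p 0.0357), named after their values were seen.

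The 10 chains with the smallest p, 5 in each direction, were all pairs of regions and are here lettered a to j. None passed the threshold, so their values are given as measured. Levels are CPM (read counts relative to library size, scaled by TMM) and summed over the chain.

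Chain a, chr3:30697800-30700499 with a gap of 182 bp, stood at 60.6, 67.4 and 69.1 CPM in the stressed mice and at 46.6, 43.2 and 47 CPM in the controls. Every stressed library was above every control, and the smallest stressed value exceeded the largest control by more than the range of the controls. The log2 fold change was 0.52 (SE 0.13, adjusted p 0.0889), the smallest p of any chain, and its regions gave 0.55 and 0.46 when taken singly. In wild-type mice the same place had a log2 fold change of -0.21 (SE 0.13).

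Chain b, chr12:35774200-35777699, was at 55.7, 68.2 and 62.6 CPM in stressed and 38, 40.9 and 49.5 CPM in control mice, without overlap. Its log2 fold change was 0.51 (SE 0.13, adjusted p 0.102), and both regions gave 0.50. It passed without het control replicate 3, the highest control (adjusted p 0.0400).

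Chain c, chr1:141325299-141328128, was at 37.4, 48.4 and 45 CPM against 23.9, 25.5 and 36.2 CPM, also without overlap, though control replicate 3 came near the lowest stressed library. It had the highest log2 fold change of all chains, 0.57 (SE 0.16, adjusted p 0.166). The first region gave 0.39 and the second 0.87, and without het control replicate 3 the chain (adjusted p 0.0400) and its second region (0.0352) passed.

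Chain d, chr16:63687209-63690499, was at 53.7, 59.5 and 62.6 CPM against 45.5, 42.2 and 41.2 CPM (log2 fold change 0.44, adjusted p 0.197). Chain e, chr15:50539858-50544720, was at 79.7, 81.7 and 110.2 CPM against 73.7, 68.4 and 67.4 CPM (0.37, adjusted p 0.200). Neither overlapped between groups, and in chain e stressed replicate 3 stood apart from its group; without it the chain was at 0.21 (adjusted p 0.779).

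Among the lower chains, chain f, chr15:7092700-7097444, was at 90.2, 84.1 and 69.8 CPM in stressed and 107.9, 115.4 and 102.8 CPM in control mice. The groups did not overlap, the log2 fold change was -0.41 (SE 0.10, adjusted p 0.102), and its regions gave -0.42 and -0.40. Without het stressed replicate 1 it passed (adjusted p 0.0486).

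Chain g, chr14:35902877-35906600, was at 54.1, 44.4 and 46.3 CPM against 71.6, 74.2 and 60.7 CPM, with no overlap (log2 fold change -0.49, SE 0.12, adjusted p 0.102). Its regions were unequal: the first gave -0.26 and the second, chr14:35905600-35906600, gave -0.84, the smallest p of any closely spaced region (adjusted p 0.0675). Without het control replicate 3 both the chain (adjusted p 0.0383) and that region (0.0104) passed.

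Chain h, chr15:100247200-100250299, has a gap of 1000 bp, the widest the rule allows. It was at 44.3, 38.1 and 43.7 CPM against 52.6, 63.3 and 64.1 CPM, with no overlap. The log2 fold change was -0.51 (SE 0.13, adjusted p 0.102), the lowest of all chains, and the regions gave -0.48 and -0.54; without het control replicate 1, the lowest control, it passed (adjusted p 0.0302).

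Chain i, chr17:11810484-11813259, was at 44.3, 39.7 and 31.3 CPM against 48.8, 55.1 and 58.7 CPM, with no overlap (log2 fold change -0.48, adjusted p 0.185). Chain j, chr3:37665400-37668438, was at 53.3, 44.4 and 42.4 CPM against 51.5, 75.9 and 62.8 CPM (-0.44, adjusted p 0.193). Chain j was the only one of the 10 whose groups overlapped, through het control replicate 1; without that library it passed (adjusted p 0.0316), and without het control replicate 2 it was at -0.27 (adjusted p 0.581).

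**Figure D1:**
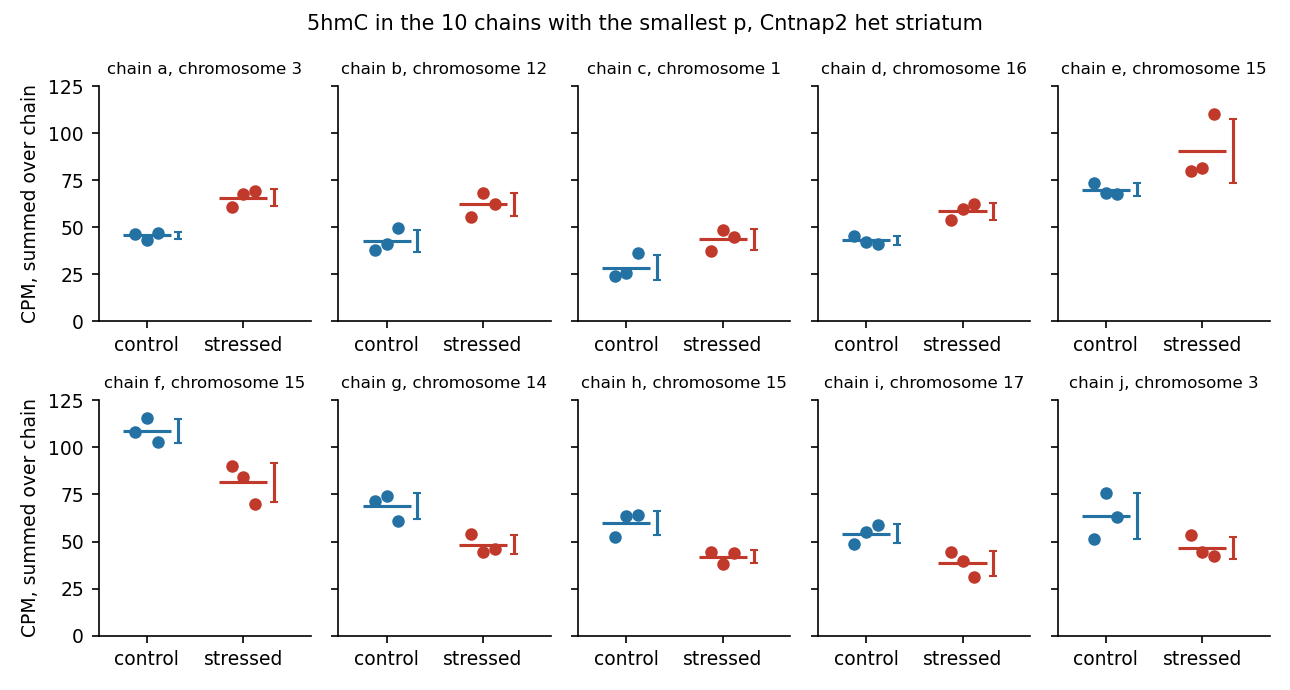
CPM summed over the chain in each het library for the 10 chains with the smallest p (a to e higher in stressed, f to j lower); points are mice, lines are means of 3 and bars are 1 SD. The groups are apart in every panel but chain j, where the lowest control, at 51.5 CPM, lies below the highest stressed library, at 53.3 CPM.

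Both regions of each of these 10 chains pointed the same way. They were chosen by the p of their sum, so that is a description. Over all chains, neighbours shared their direction only slightly more often than not. The log2 fold changes of adjacent regions within 1000 bp had the same sign in 1251 of 2314 pairs, 54.1% (exact binomial 95% interval 52.01 to 56.1%, for counting error only, since pairs share libraries and regions). Both were higher in 678 pairs and both lower in 573. Pearson's r across these pairs was 0.14 and Spearman's rho 0.14.

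Farther neighbours gave similar shares, with no steady trend over the gap. Adjacent regions over 50 kb apart shared the sign in 54.05% of 8726 pairs (53.0 to 55.1%), with r = 0.12. The same-sign share was 56.7% at 1 to 2 kb (1834 pairs, r = 0.17), 53.0% at 2 to 5 kb, 52.7% at 5 to 10 kb and 53.9% at 10 to 50 kb. Inside chains, the 233 pairs at most 100 bp apart stood at 52.8% (46.2 to 59.3%) and the 1044 pairs at 500 to 1000 bp at 54.1% (51.0 to 57.2%). The intervals of the closest and the farthest class overlapped, while that of 1 to 2 kb (54.3 to 58.9%) lay above that of 5 to 10 kb (51.1 to 54.2%). The pairs in all classes share the same 6 libraries. With single libraries left out the share within 1000 bp ran from 53.3 to 55.3% and r from 0.09 to 0.18. Over 50 kb the share ran from 51.97 to 54.2% and r from 0.06 to 0.14, and both r were lowest without het control replicate 2.

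Levels and within-group deviations were also set against the gap. The count per kb of neighbours had a rho of 0.30 within 1000 bp and 0.21 over 50 kb. Deviations of log2 CPM from the group mean had a median r over the 6 libraries of 0.06 within 1000 bp (-0.02 to 0.09) and of 0.02 over 50 kb. In the 233 pairs at most 100 bp apart that r was 0.16 (0.03 to 0.23), and at 500 to 1000 bp it was 0.02. Neighbours share libraries and, at the shortest gaps, may share sequenced fragments.

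**Figure D2:**
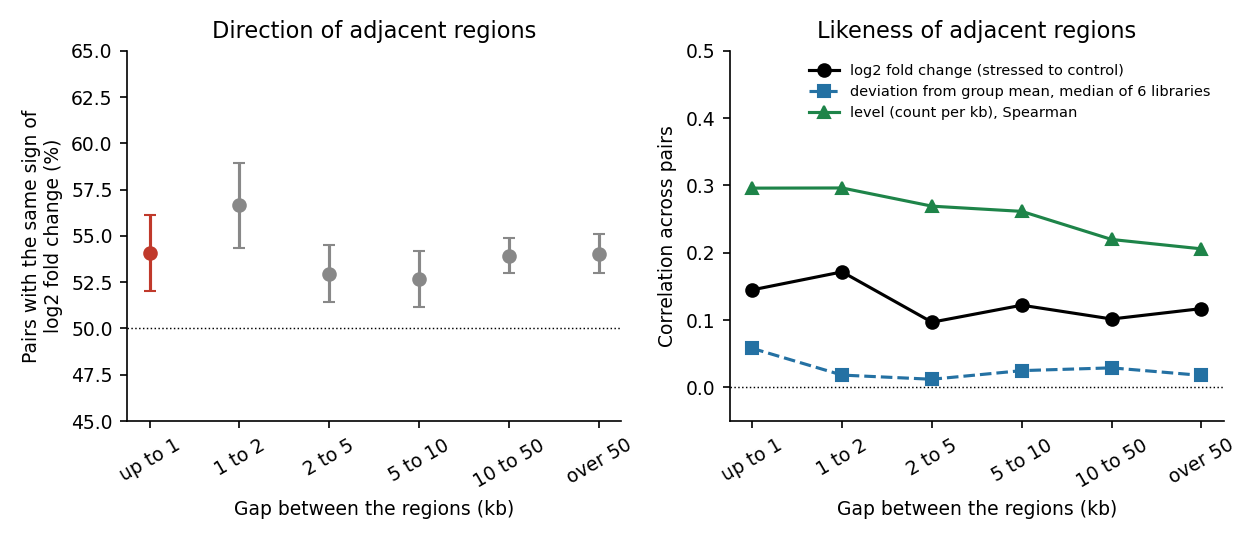
Left, percent of adjacent region pairs with the same sign of log2 fold change by gap class (kb), with exact 95% binomial intervals; the closely spaced class is red. Right, correlation across pairs of log2 fold changes (Pearson), of within-group deviations (Pearson, median of 6 libraries) and of levels (Spearman). The same-sign share stays between 52.7 and 56.7% in every class, and the level correlation declines from 0.30 to 0.21.

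Agreement was high where both neighbours had an unadjusted p below 0.05. That held for 27 of the 2314 pairs (1.17%), and for 0.76 to 1.32% of pairs in the wider gap classes. Of the 27, 19 were both higher, 7 both lower and 1 opposed. The same sign was thus found in 26 of 27 pairs within 1000 bp and in 14 of 14 pairs at 1 to 2 kb, against 205 of 292 pairs (70.2%) farther apart. Of the 27 pairs, 4 come from the 2 chains of highest count on chromosome 9, described below. The opposed pair was chr7:80600200-80601200, at -0.47, and chr7:80601567-80602811, at 0.42, a gap of 367 bp that left the chain at -0.01. These counts were read after the values were seen and carry no test.

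Whole chains often mixed directions. Of the 1742 pairs, 490 had both regions higher, 455 both lower and 797 one of each. Of the 224 chains of 3, 41 were all higher, 24 all lower and 159 mixed, and of the 37 longer chains 33 were mixed. Of the 202 chains with an unadjusted p below 0.05, 192 had all regions of one sign, which choosing by the p of the sum favours, and 59 reached it with no single region doing so. Conversely 369 chains held at least 1 region at that level and 21 held it in all their regions. Taken singly, 9.29% of closely spaced regions reached it, against 9.95% of all regions, so these counts single out no chains.

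**Figure D3:**
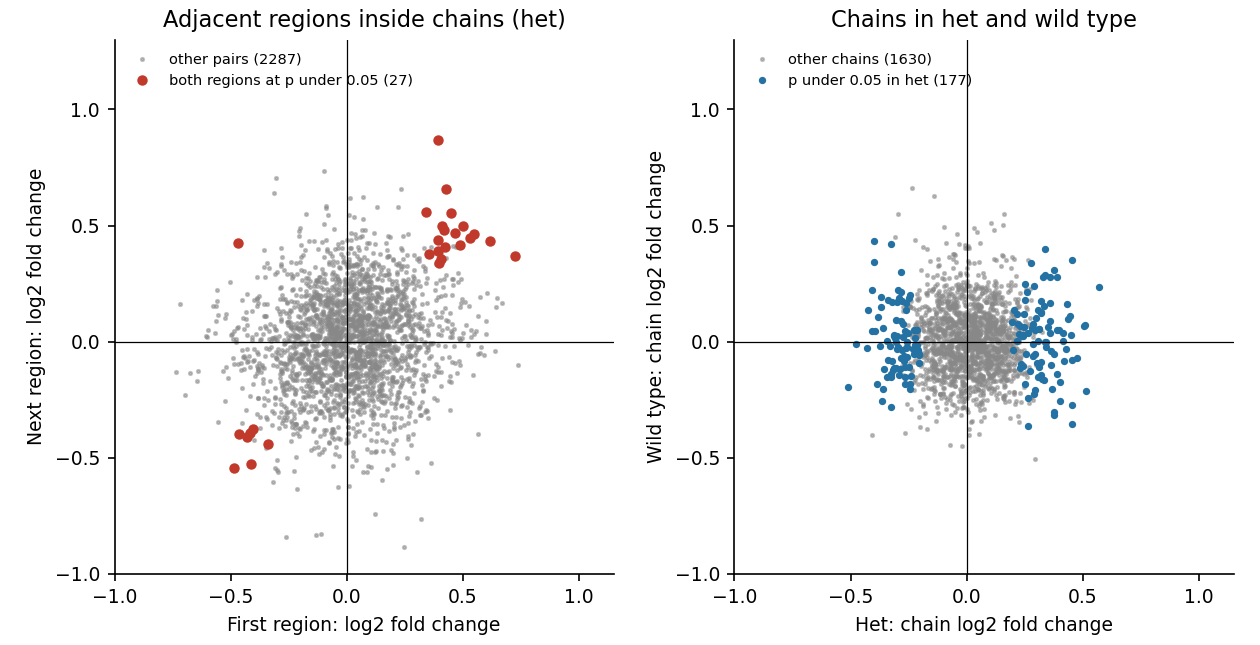
Left, log2 fold change (stressed to control, het) of each region against the next region of its chain, 2314 pairs, with the 27 pairs at an unadjusted p below 0.05 in both regions in red. Right, log2 fold change of each chain in het against wild-type mice, 1807 chains. The red points lie in the matching quadrants but for 1, and the cloud on the right has no slope (r = -0.02).

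No region was called as moving apart from its chain. The test (diffSpliceDGE in edgeR) sets a region against its whole chain, the region itself included. In a pair, the tested contrast is thus smaller than the difference between the neighbours. It passed 0 of 4317 regions (0.0%), and 69 (1.60%) had an unadjusted p below 0.05. In simulated data, 1 region was changed in each of 200 pairs, and a pair counted as recovered if either region passed. It recovered 0% of these pairs at 1.5-fold and 63.5% at 2-fold. A 1.5-fold difference between neighbours was thus not detectable by this test. The 3 regions with the smallest p are given as measured.

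The first, chr13:36197187-36198199, was at 8.5, 8.7 and 9.1 CPM in stressed and 12.5, 19.1 and 15.8 CPM in control mice, without overlap. Its neighbour 188 bp away was at 34.2, 35.7 and 31.8 CPM against 29.4, 29.7 and 26.6 CPM, apart in the opposite direction. Their log2 fold changes were -0.89 and 0.25, and the sum of the pair was at -0.07.

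The second, chr18:69688900-69690407, was at 19.9, 16.7 and 20.1 CPM against 27.7, 35.5 and 33.3 CPM, and its neighbour at 30.9, 32.5 and 33.1 CPM against 27.2, 28.0 and 21.6 CPM. Here too both regions were apart, one lower (-0.76) and one higher (0.32). The last, chr9:20308534-20309550, was at 15.5, 15.9 and 15.6 CPM against 24.5, 31.4 and 26.2 CPM (-0.83), while the other two regions of its chain were at -0.11 and 0.11 with overlapping groups. Both of these regions passed singly without het control replicate 1 (adjusted p 0.0235 and 0.0261).

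The 9 chains of 5 or more regions showed no common direction: 4 were above 0 and 5 below, from -0.11 to 0.15, and the smallest adjusted p was 0.568. The 5 described next are those of 8 and 6 regions and, of the 7 tied at 5 regions, the 3 with the highest count. chr11:3083500-3096199, of 8 regions, stood at 336, 267 and 347 CPM in stressed and 308, 403 and 316 CPM in control mice, overlapping, with a log2 fold change of -0.11 (SE 0.10). Its regions ran from -0.47 to 0.13, 5 below 0 and 3 above. chr11:3061521-3074899, of 6 regions and close by, was at -0.07 (SE 0.10), with regions from -0.43 to 0.10.

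Both chromosome 11 chains turned to above 0 without het control replicate 2, at 0.03 and 0.06. The 3 chains of 5 regions with the highest count, chr12:41216322-41225299, chr6:5950112-5961500 and chr10:66678754-66688314, were at 0.10, 0.11 and 0.15 (SE 0.09 each). Of these only the chromosome 6 chain was apart between groups, at 181, 176 and 182 against 167, 170 and 165 CPM. All 3 held at least 1 region below 0, and the adjusted p of these 5 chains was 0.568 to 0.862.

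**Figure D4:**
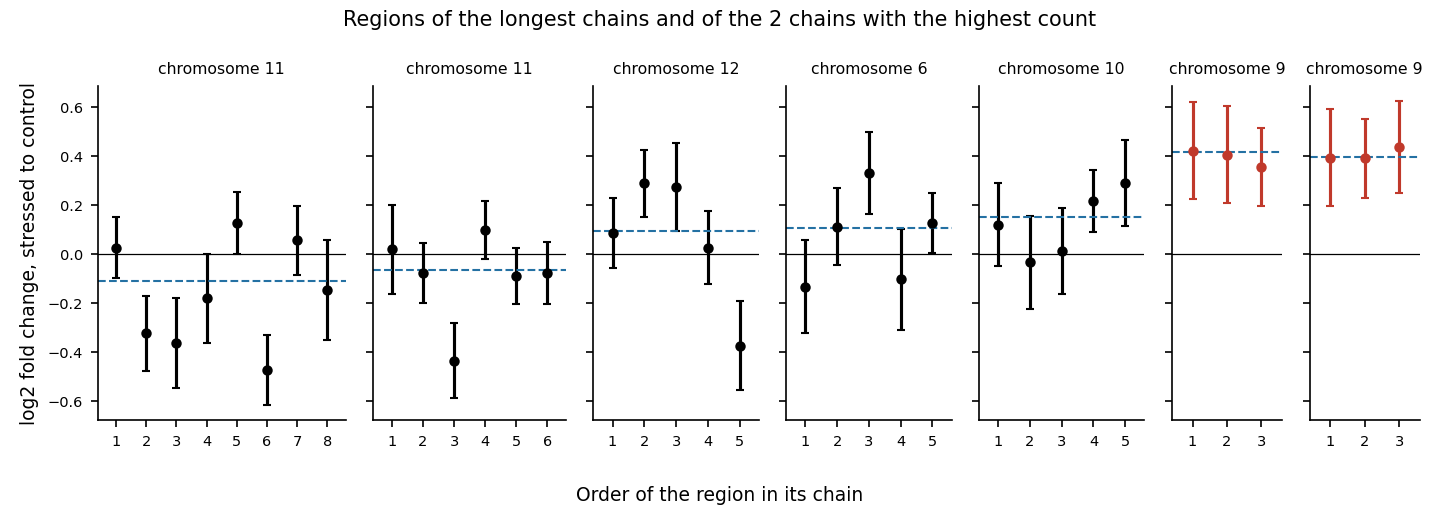
Log2 fold change (stressed to control) with its standard error for each region, in order along its chain, for the 5 chains with the most regions and, in red, the 2 chains with the highest count; dashed lines mark the summed chain. Regions of the long chains lie on both sides of 0, and the 6 regions on chromosome 9 lie between 0.36 and 0.44.

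The 2 chains of highest count stood far above the rest in level. chr9:3015000-3032999 and chr9:2999662-3009012, each of 3 regions and 5988 bp apart near the start of chromosome 9, held 9.62% of all counts in closely spaced regions. Their count per kb was 1029 and 1270 in that order, against 126 in the next chain, chr1:90171600-90177599, and a median of 42.3. That chromosome 1 chain was at 317, 268 and 269 CPM in stressed and 295, 368 and 297 CPM in control mice, overlapping. Its log2 fold change was -0.16 (SE 0.09, adjusted p 0.558 by edgeR). Whether the reads of the 2 chromosome 9 chains come from near-identical copies elsewhere was not examined, so the origin of these reads is uncertain.

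The first of the chromosome 9 chains stood at 8635, 9272 and 11509 CPM in stressed and 8273, 6637 and 7144 CPM in control mice, without overlap. Its log2 fold change was 0.42 (SE 0.16, adjusted p 0.353). The second stood at 5088, 5545 and 6852 against 4909, 4121 and 4241 CPM, also without overlap (0.40, SE 0.15, adjusted p 0.346); without het stressed replicate 3 these 2 chains were at 0.28 and 0.27. All 6 regions gave log2 fold changes of 0.36 to 0.44, although in het stressed replicate 3 their levels ran from 34.4 to 6031 CPM. In wild-type mice the 2 chains were at 0.04 and 0.05, with overlapping groups.

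As a class, closely spaced regions took nearly equal shares of counts in both groups, and the sign of the small difference depended on a few regions. They held 13.9% ± 0.13 (SD, n = 3) of eligible counts in stressed and 14.0% ± 0.13 (SD, n = 3) in control mice, a difference of -0.13 percentage points (exact permutation test, two-sided, p = 0.3). Without the chromosome 2 region the shares were 16.6% ± 0.20 and 16.1% ± 0.07, a difference of 0.44 points with no overlap (exact permutation p = 0.1, the smallest 3 against 3 allows). Also without the 2 chromosome 9 chains, an alternative chosen after seeing the data, they were 15.0% ± 0.04 and 14.9% ± 0.12, a difference of 0.06 points (exact permutation p = 0.7). Those 2 chains alone took 1.55% ± 0.20 of eligible counts in stressed and 1.22% ± 0.12 in control mice, without overlap.

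**Figure D5:**
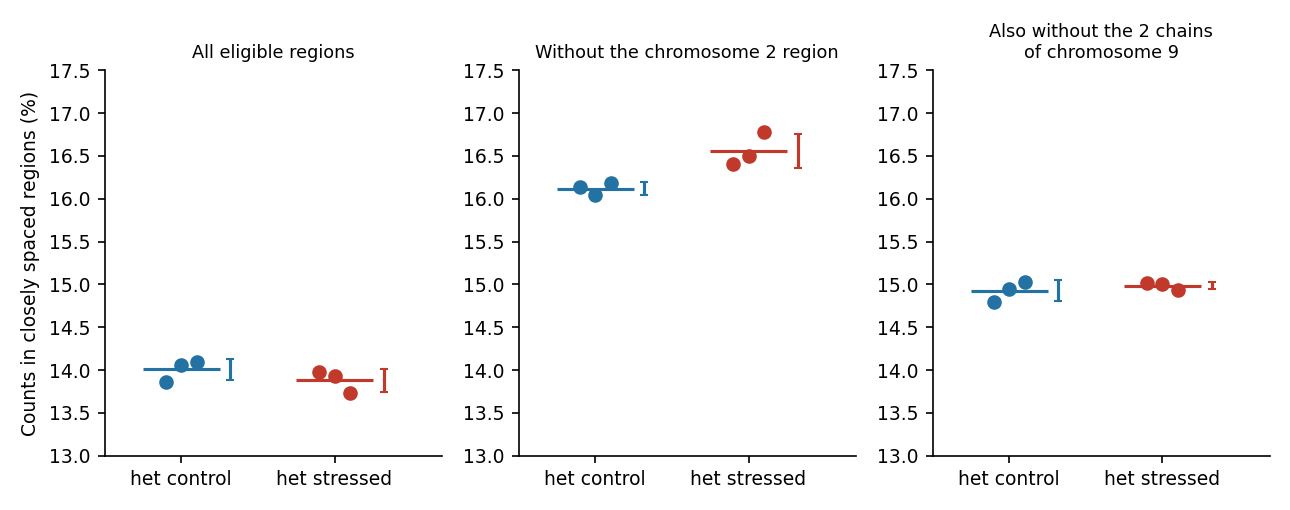
Percent of eligible counts in closely spaced regions by het library, over all eligible regions, without the chromosome 2 region, and also without the 2 chromosome 9 chains; points are mice, lines are means of 3, bars are 1 SD, and the axis starts at 13%. The groups overlap in the left and right panels and are apart in the middle one, at 16.4 to 16.8% against 16.0 to 16.2%.

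The wild-type table shares no library with the het table, so directions can be set side by side. It compares stressed with control wild-type mice, 3 each. One of its libraries went against its label in the RNA: Xist, which silences one X chromosome in females, was at 1.32 TPM in wild-type stressed replicate 2 and at 23.1 to 109 TPM in the other 11 mice. The sum of the choroid plexus markers also differed, at 6.57 to 27.0 TPM in stressed and 302 to 582 TPM in control wild-type mice. Ttr made up most of the control sums, and Kl, Clic6, Sostdc1 and Otx2 overlapped between the groups. The part of this signal in the results was not tested. Regions of this table overlapping a chain by at least 1 bp were summed per chain, which gave a value for 1807 of the 2003 chains; levels are not compared between genotypes, since the regions summed differ.

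No chain was called in wild-type mice either, where edgeR called 0 of 32152 features (0.0%). The smallest adjusted p among chains was 0.339, and 103 chains (5.70%) had an unadjusted p below 0.05, against 8.85% of that table. The groups were apart in 10.9% of chains and in 13.9% of all features. Without wild-type control replicate 1 a single chain passed, chr8:19979527-19983199 (log2 fold change -0.56, adjusted p 0.0100), and without wild-type stressed replicate 1 another, chr17:13742400-13745999 (-0.72, adjusted p 0.0165); 6 (0.0187%) and 2 (0.00622%) of all features passed in these fits. Without wild-type stressed replicate 2, 0 passed.

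Directions in the 2 genotypes matched in about as many chains as they differed. The sign was the same in 908 of 1807 chains, 50.2% (47.9 to 52.6%), with r = -0.02 and rho = -0.01. Isolated regions gave 50.3% over 15796 regions. Single wild-type libraries moved this share between 45.5%, without control replicate 2, and 53.7%, without stressed replicate 3; without stressed replicate 2 it was 49.0%. Groups were apart in both genotypes in 28 chains, 1.55%, with 15 in the same and 13 in opposite directions. Among the isolated regions it was 276 (1.75%), 150 and 126. Of chains a to j, 8 had a wild-type value, from -0.21 to 0.23, and the 2 that had none were chains g and j. The difference of the stress effect between genotypes was not tested.

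The chains were drawn differently in the other tables. In wild-type stress, 827 chains (41.3%) had all their regions overlapped by separate regions, 178 (8.89%) were covered by 1 joined region, 802 were found in part and 196 not at all. In the table of het against wild-type controls 1487 (74.2%) were kept apart and 16 were not found, and in that of stressed het against stressed wild type 763 (38.1%) and 235. In the table of stressed het against control wild type the numbers were 998 (49.8%) and 146. These 3 tables each share 3 het libraries with the table used here; the wild-type one shares none. Closely spaced regions were found again more often than isolated ones, 71.2% against 58.3% in the wild-type stress table and 91.0% against 87.2% in the control table.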

How the data were processed

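Per the submitters' processing notes, the authors used Bowtie 0.12.7 and mm9 for the 5hmC reads. The calling of regions is not described. The deposited values are raw read counts for each region in each library, per the file headers; RNA values are the deposited TPM. Members, lists and tests were chosen with earlier results of these data known. Coordinates were read as 1-based, inclusive.

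Counts were summed per chain and tested with edgeR 4.0.16 (TMM, robust glmQLFit, glmQLFTest, R 4.3.3), adjusted by Benjamini-Hochberg over all features of a table and called at 0.05, two-sided, with no filter. DESeq2 1.42.0 and limma-trend (limma 3.58.1) were alternatives, as were other gaps (500 and 2000 bp), scalings, a filter and leaving out each library. Tables were overlapped with bedtools 2.31.1. Named chains are the 5 of smallest p each way, the 5 with the most regions (ties by count) and the 5 with the highest count; named regions are the 3 with the smallest p of the within-chain test. The tests were tested on simulated data. No 2 replicates of a group agreed within sampling noise (chi-square over chains, per degree of freedom, 1.25 to 1.94).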

Additional observations from a re-analysis of the deposited data

How the results depend on the processing

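The share of counts in closely spaced regions changed sign without the chromosome 2 region (0.44 points) and also without the 2 chromosome 9 chains (0.060); without single libraries it ran from -0.20 to -0.06. Chains called, 0, became 1 with a gap of up to 2000 bp (chr2:22767795-22771749, no closely spaced region at 1000 bp) and 0 to 4 without single libraries; scalings, the filter, DESeq2 and limma-trend gave 0. Single regions called, 0, became 0 to 2 without single libraries, and wild-type chains 0 to 1. The 14 calls over the merged table became 0 with DESeq2, 4 with limma-trend, 6 and 8 with gaps of 500 and 2000 bp, and 0 to 77 without single libraries; the 2 over the deposited table became 0, 1 and 0 to 60. Of 252 alternative values of the named chains, 249 kept their sign; the other 3, all without het control replicate 2, were 0.03 and 0.06 for the chromosome 11 chains and 0.02 for the chromosome 13 chain. The cause was not tested.

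Replicate numbers did not pair the libraries (correlation of deviations -0.07, -0.08 and -0.06 for shared numbers, against 0.01 to 0.06 for other numbers). With the number as a replicate block, chains called stayed at 0 (wild type also 0), single regions became 1 (chr14:35905600-35906600, adjusted p 0.0370), and calls over all features became 27 and, in the deposited table, 17. In simulated data, 1.5-fold differences between neighbours were not detectable by the within-chain test.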

Other observations

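One chain outside the naming rule is given because it was called most often with a library left out, and it was chosen after its values were seen. chr8:19979527-19983199, 2 regions with a gap of 368 bp, was at 62.6, 73.0 and 69.1 CPM in the het stressed mice and at 67.8, 119.1 and 74.9 CPM in the het controls, overlapping. Het control replicate 2 stood far above the other 5 het libraries. The log2 fold change over all libraries was -0.41 (SE 0.19, adjusted p 0.516), with regions at -0.46 and -0.40. The chain passed without het control replicate 1 (-0.54, adjusted p 0.0061) and without het control replicate 3 (-0.52, adjusted p 0.0334). In wild-type mice it was at 56.0, 71.2 and 73.1 CPM in stressed and 59.8, 111.3 and 87.6 CPM in control mice, overlapping, with a log2 fold change of -0.40 (SE 0.20, adjusted p 0.604). There 1 control library, replicate 2, again stood highest, and the chain passed without wild-type control replicate 1 (-0.56, adjusted p 0.0100). Reads from near-identical copies were not examined there.

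The other het chain called without a library and not named above was chr16:38226099-38229583, at -0.42 over all libraries (adjusted p 0.200) and at -0.67 without het stressed replicate 1 (adjusted p 0.0460). Both its regions had an unadjusted p below 0.05, at -0.43 and -0.41.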
